A study of Mus musculus with 10 samples.

Results

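Dapl1, Ociad2 and Tcim are 3 genes with low transcript levels in tongue epithelial cultures that carry active YAP1 and the HPV16 oncogenes E6-E7. They were chosen by their readout, as genes among the most lowered in EY cultures against N cultures, and make up 3 of the 18586 rows of the deposited expression table. The EY minus N differences of these genes are therefore described without a test, and the tests below concern what that choice did not use. All 3 were among the 11630 genes that passed the filter on low values (at least 1 TPM in at least 4 libraries). TPM, a transcript abundance, divides reads by transcript length and scales each library to a common sum, so that levels of different genes can be set side by side.

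Bulk poly(A) RNA-seq covered 10 libraries of primary cultures of GFP-sorted cells, started from tongue epithelium taken 15 days after transgene induction. The 6 EY libraries carried both oncogene alleles, tetON_YAP1S127A and tetON_E6-E7, together with Krt14-CreERT, LSL-rtTA and the reporter tetON_H2B-GFP. They came as 2 libraries per line from EY3960, EY4028 and EY4174. The 4 N libraries carried the same driver, transactivator and reporter without either oncogene, and all came from the single line N4172. Both groups derive from adult littermates given tamoxifen in the tongue and doxycycline in the diet, with doxycycline kept in the culture medium, and the Krt14 promoter limits Cre to basal epithelial cells. Genotype and line cannot be told apart with a single N line. Libraries of a line are read here as repeats of a culture and not as separate animals, while the paper counts 4 N and 6 EY biological replicates. On this reading, p-values between EY lines measure the spread between libraries of a line, which may be technical. Those of EY against N, with their SE, also take in differences between the EY lines and treat all libraries as independent.

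The 3 genes encode small proteins with different roles. Dapl1, also named early epithelial differentiation-associated protein, is a paralog of the death-associated protein Dap; members of this family bind ribosomes in dormant eggs together with the translation factor eIF5A. Ociad2 shares its OCIA domain with Ociad1, a mitochondrial protein with a role in the assembly of respiratory complex III, and has been described as a stimulator of gamma-secretase. Tcim, also called TC1, binds Chibby, the product of Cby1, which holds back beta-catenin. In the GENCODE M21 annotation the genes lie on different chromosomes. Dapl1 is on chromosome 2 with 4 exons and a coding length of 321 bases, Ociad2 on chromosome 5 with 7 exons and 462 coding bases in its longest coding transcript, and Tcim on chromosome 8 with 1 exon and 318 coding bases.

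RefSeq promoter windows (GRCm38.p6) were at hand for 2 of the 3 genes, Dapl1 and Ociad2, and the 250 bases before the annotated start are shown because both genes were low in the same libraries. The Dapl1 window lies at chr2:59484403-59484652 on the plus strand, and capitals mark a TATAAA element that begins 29 bases before the start. The Ociad2 window lies at chr5:73338948-73339197 on the minus strand, and capitals mark an alternating CG stretch of 14 bases beside CA repeats. The sequences are given from 5′ to 3′.
Dapl1: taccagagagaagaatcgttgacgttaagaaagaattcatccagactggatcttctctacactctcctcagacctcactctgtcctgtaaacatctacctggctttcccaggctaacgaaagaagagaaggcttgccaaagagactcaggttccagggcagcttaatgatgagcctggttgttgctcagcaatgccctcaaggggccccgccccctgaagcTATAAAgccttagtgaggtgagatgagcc
Ociad2: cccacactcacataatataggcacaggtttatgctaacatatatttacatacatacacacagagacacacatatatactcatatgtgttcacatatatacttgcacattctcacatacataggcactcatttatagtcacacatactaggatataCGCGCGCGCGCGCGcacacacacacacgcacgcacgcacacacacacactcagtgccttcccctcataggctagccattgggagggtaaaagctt

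Both promoters were searched as windows of 300 bases that include 50 bases after the start. GGAATG, the core of the TEAD motif through which YAP binds DNA, was in neither window on either strand, and 14.7% of all 32851 promoter windows hold it. The AP-1 motif TGANTCA and the RBPJ motif GTGGGAA were in neither window as well, against 7.81% and 6.38% of all windows. TATAAA on the gene strand, looked for after the sequences had been seen, was in the Dapl1 window alone of the pair and in 8.32% of all windows. The Dapl1 window had 5 CG dinucleotides and the Ociad2 window 11, with a median of 7 over all windows. These matches describe letters in these windows only.

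Of the whole series, each library had between 10852 and 11522 genes with at least 1 TPM, and the read depth behind the values is unknown. The row of the mouse gene Yap1 lay between 34.7 and 57.1 TPM in EY and between 17.2 and 20.9 TPM in N, without overlap. Whether reads of the YAP1S127A transgene count toward this row is not stated. Krt5, Krt14 and Trp63, which mark basal keratinocytes, were high in every library, with at least 1321, 2517 and 46.0 TPM. Trp63 was lower in EY (at most 60.5 TPM) than in N (at least 70.8 TPM), without overlap. Marker sums of fibroblasts (2 of 7 markers in the table), endothelial cells (4 of 5) and skeletal muscle (2 of 6) reached at most 0.748, 0.697 and 0.933 TPM in any library. The immune list (5 of 7) summed to between 30.1 and 72.8 TPM in EY and between 42.8 and 69.5 in N, nearly all of it Cd68. Ptprc, a marker of white blood cells, stayed at or under 0.347 TPM. The melanocyte list (4 of 6) summed to at most 1.23 TPM in EY and to between 1.29 and 3.44 in N. Simple epithelium markers (5 of 5) summed to between 177 and 478 TPM in EY and between 75.5 and 120 in N, with 1 of the 4 tested markers called higher, Krt19, at 53.6 to 296 TPM in EY and 3.00 to 16.8 in N. Krt7 went the other way (0.170 to 0.339 TPM in EY and 0.593 to 1.84 in N), and Krt8 and Krt18 overlapped between the groups. Epcam was higher in EY (53.1 to 63.3 TPM) than in N (29.3 to 38.3 TPM). Markers that differed between EY and N did so together with genotype and hence with the 3 genes. Their part in the results was not tested.

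Dapl1 was nearly undetected in EY. It was listed at 0 TPM in both libraries of EY3960, at 0 and 0.0979 TPM in EY4028, and at 0.764 and 0.717 TPM in EY4174. The N libraries had 14.9, 18.2, 15.2 and 21.1 TPM. Every N library thus lay far above every EY library, and no EY library reached 1 TPM. N averaged 17.3 ± 2.94 TPM (SD, n = 4) and EY 0.263 ± 0.372 TPM (SD, n = 6), a difference, EY minus N, of -3.89 ± 0.20 (SE) on the log2(TPM + 1) scale. This scale understates a difference when 1 group is near 0, and the value was -4.66 with a pseudocount of 0.5 and -6.24 with 0.1. Dapl1 passed the filter through its 4 N libraries alone, so a gene that passed in this way had to differ.

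Ociad2 was present in all libraries at a reduced level in EY. It was measured at 11.1 and 10.9 TPM in EY3960, at 3.64 and 1.39 TPM in EY4028, and at 3.35 and 3.06 TPM in EY4174. In N it stood at 63.0, 62.5, 66.8 and 105 TPM, which placed it above 87.1% of the tested genes. The groups did not overlap, and the lowest N library exceeded the highest EY library by a wide margin. N averaged 74.3 ± 20.6 TPM (SD, n = 4) against 5.59 ± 4.29 TPM for EY (SD, n = 6), and EY minus N was a log2(TPM + 1) difference of -3.73 ± 0.46 (SE). As a ratio of mean TPM, N stood 6.74-fold above EY3960, 29.5-fold above EY4028 and 23.2-fold above EY4174.

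Tcim varied most among the EY cultures. Its levels were 0.155 and 0.0449 TPM in EY3960, 8.45 and 8.82 TPM in EY4028, and 3.96 and 3.26 TPM in EY4174. The N libraries had 43.8, 42.5, 45.6 and 29.7 TPM, again without overlap with EY. Averages were 40.4 ± 7.25 TPM for N (SD, n = 4) and 4.12 ± 3.85 TPM for EY (SD, n = 6), with EY minus N at a log2(TPM + 1) difference of -3.48 ± 0.70 (SE). In ratios of mean TPM, N lay 4.68-fold above EY4028 and 11.2-fold above EY4174. EY3960 held so little Tcim that a ratio would rest on values near 0. In these bulk libraries, fewer cells with a transcript and less of it per cell cannot be told apart.

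**Figure D1:**
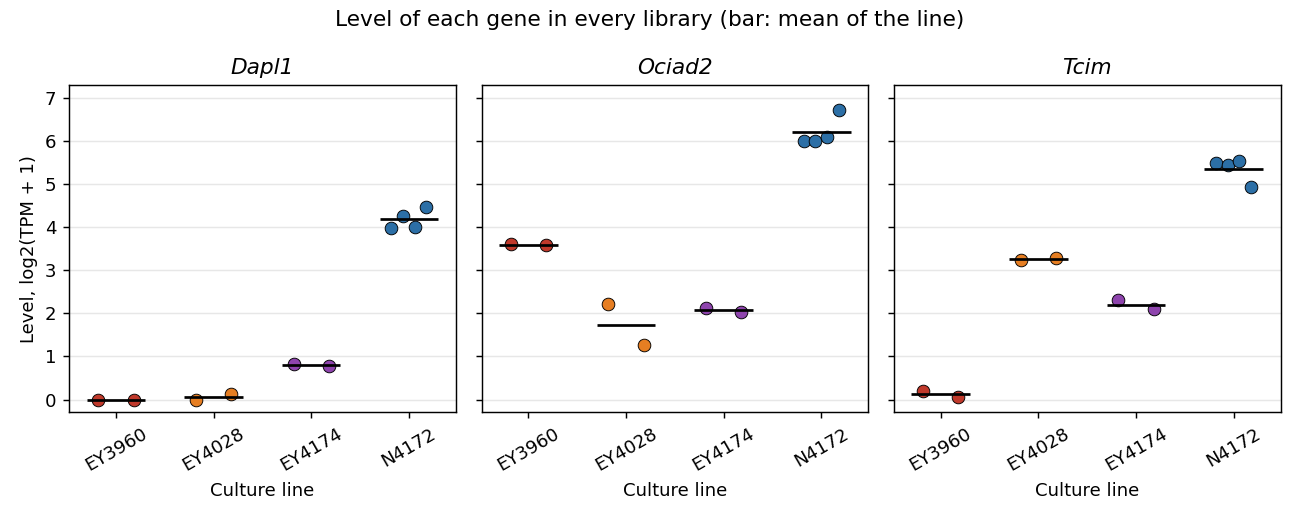
Level of Dapl1, Ociad2 and Tcim as log2(TPM + 1) (vertical axis) in each of the 10 libraries (points), by culture line (horizontal axis), with the mean of each line as a bar. All N4172 points lie above all EY points in each panel. EY3960 is the highest EY line for Ociad2 and the lowest for Tcim, and no order of lines is read from Dapl1.

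All EY libraries lay below all N libraries for 9.1% of the tested genes, and 198 genes (1.7%) were called lower in EY by limma (adjusted p under 0.01 and a log2 difference beyond 1). All 3 genes are in both sets, which the way they were chosen fixes. Among 76 called genes with at least 5 TPM on average, a symbol of a named gene and no overlap between the groups, the lowest were Igfbp2 (-4.26) and Gstm1 (-3.97), followed by Dapl1, Ociad2 and Tcim at places 3, 4 and 5. Next below came Sparc, a matrix glycoprotein, at -3.30, and then Apobec3, an antiviral cytidine deaminase, at -2.76. Over all tested genes, the members ranked 10, 12 and 16 from the lowest. The SE of Tcim is the widest of the 3 and covers the distance to Sparc. With a pseudocount of 0.1, Tcim was at -4.44 and Ociad2 at -4.04, so their order turned.

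**Figure D2:**
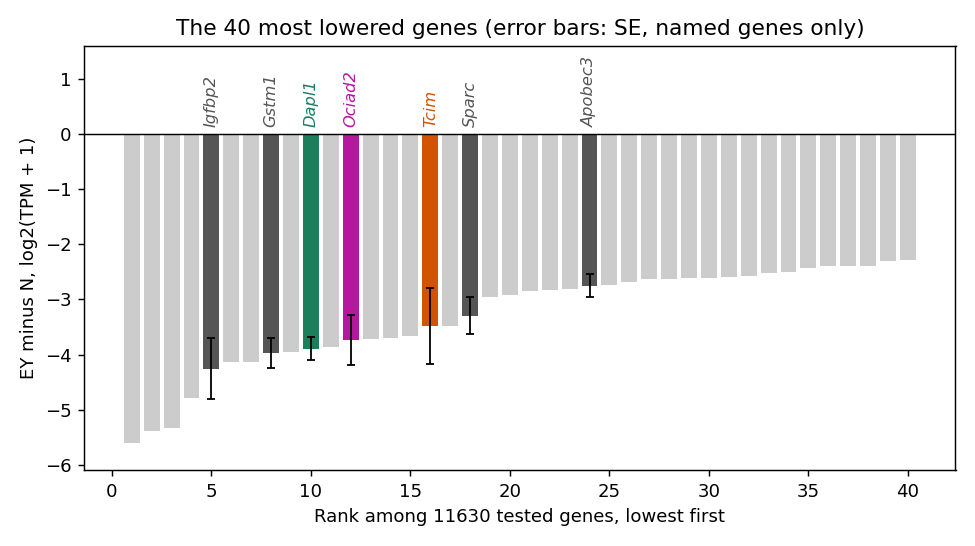
EY minus N on the log2(TPM + 1) scale (vertical axis) for the 40 tested genes with the lowest values, by rank (horizontal axis). Colours mark Dapl1, Ociad2 and Tcim at ranks 10, 12 and 16, dark grey marks the named genes above and below them, light grey the rest, and error bars are SE of the named genes.

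Set against N one line at a time, each gene stayed among the lowest. Dapl1 differed from N by -4.18 in EY3960, -4.12 in EY4028 and -3.38 in EY4174 on the log2(TPM + 1) scale. The differences of Ociad2 were -2.61, -4.46 and -4.13 in the same order of lines, and those of Tcim were -5.22, -2.08 and -3.15. By rank from the lowest of 11630 genes, the members stood between 14 and 59 in EY3960, between 6 and 56 in EY4028 and between 14 and 23 in EY4174. The 3 line values share the N libraries and are no separate evidence.

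The differences between the EY lines were tested next, since the choice of the genes rests on EY against N. The moderated F test of limma over the 3 EY lines called 5.12% of the tested genes (adjusted p under 0.01 and over 1 on the log2 scale between at least 1 pair of lines). Of the members, Ociad2 and Tcim were called. For Tcim the adjusted p was 4.07e-06. EY4028 lay 3.13 ± 0.19 (SE) above EY3960 on the log2(TPM + 1) scale and EY4174 lay 2.07 ± 0.19 above it, while EY4174 was 1.07 lower than EY4028 (a value of -1.07, adjusted p = 0.00673). All neighbours in the order EY3960, EY4174 and EY4028 thus differed in Tcim beyond their spread. EY3960 held at most 0.155 TPM of Tcim, so the size of its differences depends on the pseudocount. EY4028 minus EY3960 was 3.93 with a pseudocount of 0.5 and 5.51 with 0.1, and Tcim stayed called.

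Ociad2 followed another order. It was highest in EY3960, with EY4028 at -1.85 ± 0.31 (SE) and EY4174 at -1.52 ± 0.31 relative to it on the log2(TPM + 1) scale (limma F test adjusted p = 0.00526). EY4174 and EY4028 could not be separated, with a difference of 0.34 ± 0.31 (limma adjusted p = 0.550). The call rested on single libraries. Without EY3960 sample 1, EY3960 sample 2, EY4174 sample 1 or EY4174 sample 2, the limma adjusted p rose to 0.0481, 0.0430, 0.0163 and 0.0194, each past the threshold of 0.01, while the difference between EY4028 and EY3960 lay between -1.87 and -1.84.

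Dapl1 was least low in EY4174, at 0.80 ± 0.18 (SE) above EY3960 and 0.73 ± 0.18 above EY4028 on the log2(TPM + 1) scale, while EY4028 and EY3960 differed by 0.07 ± 0.18 (limma adjusted p = 0.863). The F test gave a limma adjusted p of 0.0172, which missed the threshold, as did the size of the difference. All EY values of Dapl1 lie under 1 TPM at unknown depth, and the gene passed the filter through N alone, so that the size is set by the pseudocount (1.31 at 0.5 and 3.07 at 0.1) and no difference between lines is read from it.

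**Figure D3:**
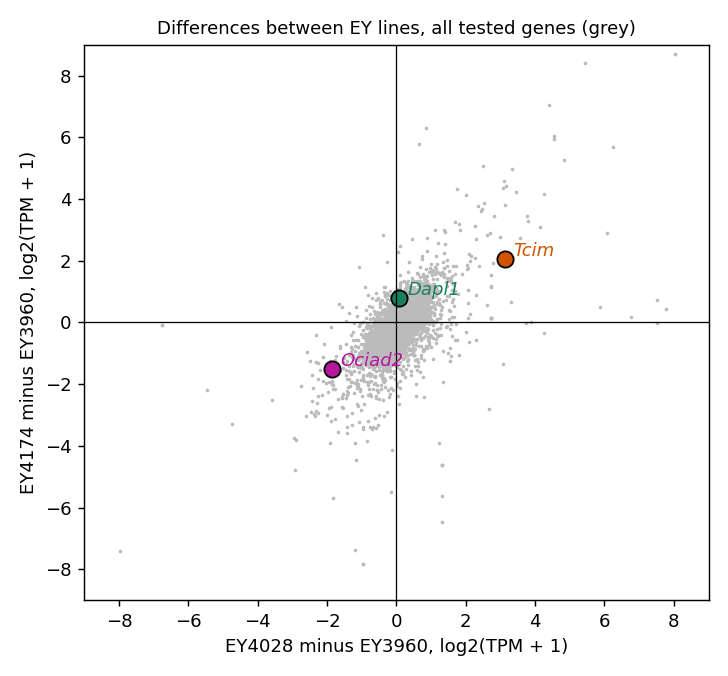
Differences between EY lines on the log2(TPM + 1) scale for all tested genes (grey points), EY4028 minus EY3960 on the horizontal axis and EY4174 minus EY3960 on the vertical axis, with the 3 genes in colour. Tcim lies at 3.13 and 2.07, Ociad2 at -1.85 and -1.52, and Dapl1 at 0.07 and 0.80.

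The EY line with the most Ociad2, EY3960, had the least Tcim and no listed Dapl1. Over the 6 EY libraries, Pearson's r of log2(TPM + 1) was -0.93 between Ociad2 and Tcim, -0.42 between Dapl1 and Ociad2, and 0.26 between Dapl1 and Tcim. Over all 10 libraries these were 0.64, 0.91 and 0.86, where the distance between EY and N sets the value. The 6 EY libraries come from 3 lines, and these coefficients describe them only, with those of Dapl1 resting on values under 1 TPM.

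Within N, sample 4 differed from samples 1 to 3 in opposite directions. Its Ociad2 level was 63.9% above their mean and its Dapl1 level 31.5% above it, whereas Tcim fell by 32.5% below it. Without sample 4, the N mean was 16.1 ± 1.83 TPM for Dapl1, 64.1 ± 2.38 for Ociad2 and 44.0 ± 1.53 for Tcim (SD). The EY minus N differences without it were -3.80, -3.56 and -3.62 on the log2(TPM + 1) scale, so the order of Ociad2 and Tcim turned.

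The paralogs Dap and Ociad1 and the binding partner Cby1 were then compared between EY and N, where limma called 3.55% of the tested genes in either direction. Ociad1 averaged 198 ± 7.41 TPM for N (SD, n = 4) and 185 ± 14.4 TPM for EY (SD, n = 6), a log2 difference of -0.10 ± 0.07 (SE, limma adjusted p = 0.328). Dap had 33.7 ± 11.1 TPM in EY and 40.9 ± 17.8 in N, at -0.25 ± 0.27 (limma adjusted p = 0.544), and 0.01 without N sample 4. Cby1 stood at 20.6 ± 4.49 TPM in EY and 22.3 ± 4.11 in N, at -0.11 ± 0.16 (limma adjusted p = 0.652). None of these was called. Ociad1 exceeded Ociad2 in mean TPM in every EY line and in N, and both lie next to each other in the genome.

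The nearest 2 listed genes on each side of each member were examined for the same comparison. Of these 12 neighbours 10 were tested, and limma called 0 of them, with 3 (Wdsub1, Dcun1d4 and Adam9) at an unadjusted p under 0.05. Of all tested genes, 37.5% had an unadjusted p under 0.05 in this comparison. Around Dapl1, the desmosomal plaque protein gene Pkp4 was at 0.15 (adjusted p = 0.530) and Tanc1 at 0.01 (adjusted p = 0.965). Wdsub1, the second gene on the other side, was at -0.53 with a limma adjusted p of 0.00182, short of the required size of 1. Beside Ociad2, Fryl was at -0.10 and Dcun1d4 at -0.43 (adjusted p = 0.763 and 0.0231). Beside Tcim, the secreted Wnt antagonist Sfrp1 was at 0.30 (adjusted p = 0.478), Golga7 at 0.09 (0.354), the metalloprotease gene Adam9 at 0.29 (0.0766) and Tm2d2 at -0.14 (0.261). Sfrp1 differed between the EY lines (limma F test adjusted p = 4.50e-04). It averaged 3.23 TPM in EY3960, 2.97 in EY4028 and 0.792 in EY4174, against 1.53 in N.

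**Figure D4:**
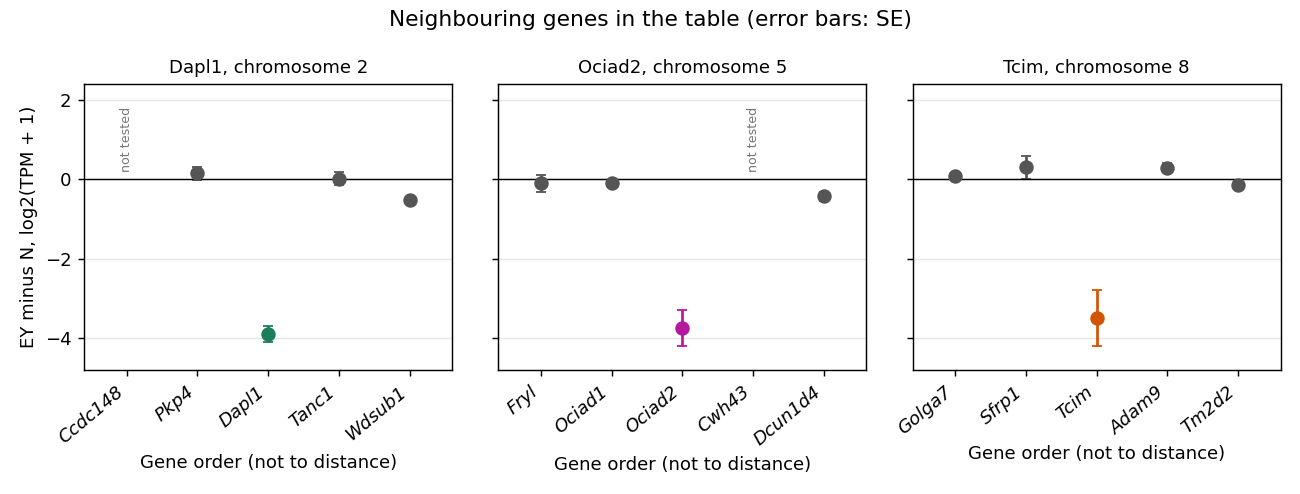
EY minus N on the log2(TPM + 1) scale (vertical axis) for each of the 3 genes (colour) and the nearest 2 genes of the table on each side (grey), in genome order and not to distance, with SE as error bars. Neighbours lie between -0.53 and 0.30, and Ccdc148 and Cwh43 were too low to be tested.

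Genes linked to the known roles of the 3 proteins were taken from 6 lists with 81 tested genes, of which limma called 2 higher and 0 lower in EY (2.47%). The median EY minus N over all tested genes was 0.03. For Dapl1, ribosome-bound translation factors were examined. None of the 7 was called, 3 had an unadjusted p under 0.05 (37.5% over all tested genes) and the list median was 0.05. Eif5a, the partner of this family on dormant ribosomes, averaged 1046 ± 56.6 TPM for N (SD, n = 4) and 1292 ± 126 TPM for EY (SD, n = 6), a log2 difference of 0.30 ± 0.08 (SE, limma adjusted p = 0.0195).

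For the OCIA proteins, 19 genes of respiratory complex III and its assembly had a median of 0.11 with 0 called and 6 at an unadjusted p under 0.05. An adjusted p under 0.01 was reached by 3 of these, all higher in EY and under the size required, where 11.8% of all tested genes reached it in either direction. They were the core subunit gene Uqcrc1 (0.52, limma adjusted p 5.77e-04), the cytochrome c1 gene Cyc1 (0.38, 0.00923) and the assembly factor gene Uqcc2 (0.55, 0.00181). The 7 gamma-secretase genes had a median of 0.09 with 0 called and 2 at an unadjusted p under 0.05.

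For Tcim, 17 of 30 genes of the beta-catenin pathway and its targets were tested, with a median of 0.03. The Wnt ligand gene Wnt7a was called, with 3.94 ± 2.46 TPM for N (SD, n = 4), 8.42 ± 0.943 TPM for EY (SD, n = 6), overlapping groups and a log2 difference of 1.04 ± 0.22 (SE, limma adjusted p = 0.00613). With line as a random block the call of Wnt7a was lost (adjusted p = 0.178). Wnt7b and the target Myc had an adjusted p of 7.56e-04 and 0.00711 with differences of 0.87 and 0.51. Ctnnb1, which encodes beta-catenin, was at 0.10 (limma adjusted p = 0.482).

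Differentiation genes were compared because Dapl1 is named for early epithelial differentiation. Of 30 early and suprabasal genes 21 were tested between EY and N, with a median of 0.29. The transcription factor gene Ovol1 alone was called, with 2.02 ± 0.673 TPM for N (SD, n = 4), 5.58 ± 2.48 TPM for EY (SD, n = 6) and a log2 difference of 1.07 ± 0.25 (SE, limma adjusted p = 0.00937). With line as a random block the call of Ovol1 was lost as well (adjusted p = 0.0910). Wnt7a and Ovol1 lay just past the thresholds, and each lost its call in 8 of 10 refits with a single library removed, namely without EY replicate 1, 2, 3, 4 or 5 or N replicate 1, 2 or 3. The 10 basal keratinocyte genes had a median of -0.30, and limma called 0 of them. An unadjusted p under 0.05 was reached by 5, beside 37.5% of all tested genes in either direction. Those 5 were all lower in EY. Trp63, a transcription factor gene of the basal layer, was at -0.58 with a limma adjusted p of 0.00262, short of the size required. Krt15, a basal keratin gene, was at -1.90 (25.3 TPM for EY and 84.3 for N) with an adjusted p of 0.0168. Its line means were 35.3 TPM in EY3960, 8.77 in EY4028 and 31.9 in EY4174, which differed (limma F test adjusted p = 4.13e-05). The others were Dst at -0.47, Sox2 at -0.49 and Pitx1 at -0.48. Krt5, Krt14, Itga6, Itgb4 and Col17a1, the rest of the list, lay between -0.12 and 0.25.

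Between the EY lines, 7 of the 21 differentiation genes were called, beside 5.12% of all tested genes. All 7 were highest in EY3960, and 6 of 7 were lowest in EY4174. Dapl1 lay under 1 TPM in all 3 lines, so its order of lines is not set against theirs. Krtdap, a secreted differentiation-associated protein, averaged 115 TPM in EY3960, 46.2 in EY4028 and 14.6 in EY4174, against 56.2 in N. Krt13, a keratin of suprabasal oral cells, averaged 69.3, 8.31 and 4.27 TPM in the same lines and 58.2 in N. Ivl, which encodes the envelope protein involucrin, averaged 22.1, 13.5 and 7.64 TPM, against 10.7 in N. The others were Krt4, Dmkn, Grhl1 and Grhl3. The list was made with earlier results of these data known, so this order is a description of these cultures and no independent evidence. Over all 6 lists, limma called 10 of the 81 tested genes between the EY lines. Besides the 7, these were Sfrp1 and Wnt5a of the beta-catenin list and Krt15 of the basal list.

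**Figure D5:**
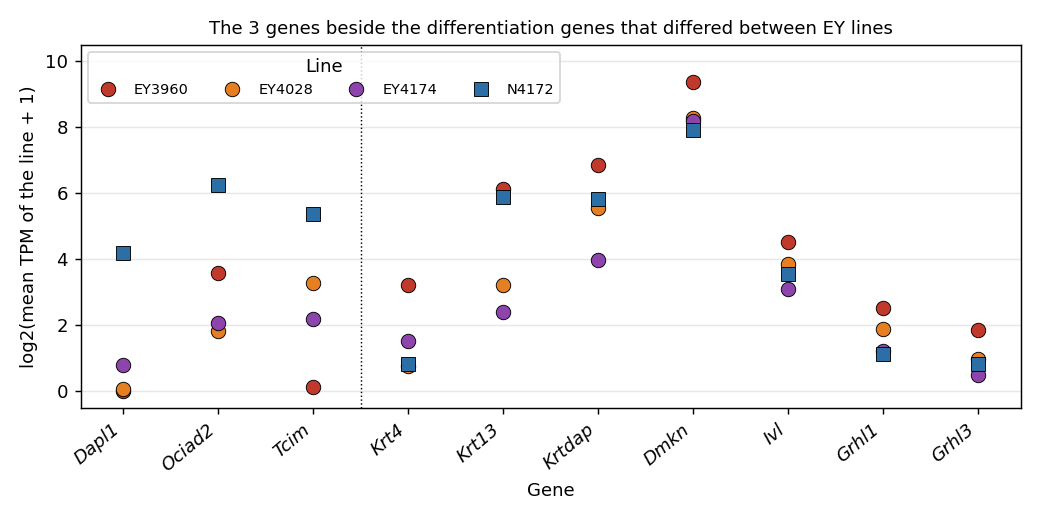
Mean level of each culture line as log2(mean TPM + 1) (vertical axis; circles for EY lines, squares for N4172) for the 3 genes (left of the dotted line) and the 7 differentiation genes called between EY lines. EY3960 is the highest EY line for the 7 genes and the lowest for Tcim, and Dapl1 lies under 1 TPM in all EY lines.

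The genes most like each member were named by Pearson's r of log2(TPM + 1) among tested genes with at least 5 TPM on average. Over the 10 libraries, Dapl1 was most like Ly6c1, a GPI-anchored surface protein gene (r = 0.99, with means of 130 TPM in EY and 809 in N), Txnip, the thioredoxin-interacting protein gene (0.99), and Ssbp2 (0.99). Ociad2 was most like Bnip3, a mitophagy receptor gene (0.98, with 63.2 TPM in EY and 134 in N), and Rps2-ps10 (0.98). Reads of the pseudogene Rps2-ps10 may be shared with its parent gene, so its level is uncertain. Tcim was most like Il15ra, a subunit gene of the interleukin-15 receptor (0.98), Alkbh8 (0.98) and the glutathione transferase gene Gsta3 (0.98). The libraries share genotype and line, so these values rest largely on the gap between EY and N.

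Over the 6 EY libraries alone, other genes came first for Tcim and Ociad2. Tcim was most like Nppb, the brain natriuretic peptide gene, with 2.18 TPM in EY3960, 28.6 in EY4028 and 11.4 in EY4174, and with 1.71 in N, where Tcim was at its highest. Lhfp and Platr16 followed, also with an r of 0.99. Ociad2 was most like Commd6, Rab11a and Cops5 (0.99, 0.99 and 0.98), and Rab11a, a recycling endosome GTPase gene, averaged 161 TPM in EY and 135 in N. No likeness is given for Dapl1 over these libraries, since it was listed at 0 in 3 of them and stayed under 1 TPM in all.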

How the data were processed

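RNA-seq values of 10 libraries were used as deposited by the authors, in TPM per gene symbol, with libraries not pooled. The submitters' processing notes name STAR 2.7.9, SAMtools 1.7, HTSeq 0.13.5, DESeq2 1.34.0 and GRCm39. The paper also describes Kallisto TPM, and which step made this table is not stated. Each row is above 0 in at least 6 libraries, so a gene detected only in N would not be listed. Depth is unknown, and no interval or floor was computed.

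Groups and lines came from the labels. Genes reaching 1 TPM in 4 or more libraries were fitted as log2(TPM + 1) with limma 3.58.1 in R 4.3.3 (trend and robust, Benjamini-Hochberg adjustment over all 11630 genes). EY against N used 2 group means, and the EY lines were compared in a model of 4 line means. Calls required an adjusted p under 0.01 and a log2 difference over 1. Scripts were tested on simulated data. Alternatives changed the pseudocount, filter, scaling, variance model, libraries, treatment of lines and replicate block.

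The members and lists were chosen with earlier results of these data known. Named genes were the members, Dap, Ociad1, Cby1, called list genes, the 2 genes above and the 2 below the members in rank, the 3 most similar genes (1 is not reported here, and those of Dapl1 over EY were left out for its low values), and the nearest 2 on each side. Other list genes and markers were named after their values were seen. Cytb was matched as mt-Cytb, and spreadsheet dates replaced 20 symbols. Neighbour order and promoters are RefSeq (GRCm38.p6) and gene models GENCODE M21, while the table names no build. Tcim had no promoter entry.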

Additional observations from a re-analysis of the deposited data

Results flagged for a closer look

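Among 12 groups of values (6 genes in EY and in N), a library far from the rest of its group was found in 3. Each time it was N sample 4. Far was read from the gap to the nearest value as a share of the group's range (Dixon's rule). Chance would give 0.6 groups if all values were independent. The 6 genes share their libraries, so the 3 groups are findings on a single library and are not weighed against 0.6. EY values come in pairs of a line, so a line that stands apart can go unflagged there. N sample 4 had 105 TPM of Ociad2, where the other N libraries lay between 62.5 and 66.8 TPM. It had 67.3 TPM of Dap, with the other N libraries at 28.8 to 34.1 TPM, and 209 TPM of Ociad1, with the others at 193 to 195 TPM. For Dapl1 and Tcim the same library was the highest and the lowest of the N libraries without standing as far apart.

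The difference from N varied between the EY lines for Ociad2 (limma F test over the 3 lines, adjusted p = 0.00526) and for Tcim (adjusted p = 4.07e-06). EY3960 was the least lowered line for Ociad2 and the most lowered for Tcim. EY4028 and EY4174 could not be separated in Ociad2.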

How the results depend on the processing

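EY lay below N for all 3 genes in every alternative that gave a value. The genes were chosen for this difference and their groups did not overlap, so that is no separate evidence. The difference of Dapl1 was -4.66 with a pseudocount of 0.5 and -6.24 with 0.1, and its largest difference between EY lines was then 1.31 and 3.07, past the threshold, from values under 1 TPM. Leaving out 1 library at a time, the difference of Ociad2 between EY lines ranged from -2.33 to -1.37, with an adjusted p from 7.07e-04 to 0.0481, past 0.01 without EY replicate 1, 3, 4 or 6 (both libraries of EY3960 and of EY4174). A line left with 1 library was assumed to vary like the others. The difference of Tcim between lines was called in each of its alternatives. Its size was 3.93 with a pseudocount of 0.5 and 5.51 with 0.1, from values in EY3960 of at most 0.155 TPM. EY minus N of Tcim was then -3.84 and -4.44.

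With at least 1 TPM required in all 10 libraries, which leaves Dapl1 and Tcim untested, 216 genes were called between EY and N, 88 of them lower, and 350 between EY lines. With line as a random block 203 were called, 97 lower, and with line means 2, 0 of them lower, since line means leave 3 values against 1. The count of related genes called, 2 as reported (Wnt7a and Ovol1), was 1 with no filter, quantile normalization, equal medians or limma without trend and robust options, each time Wnt7a. It was also 1 without line EY3960 (Krt13) and without line EY4028 (Krt15), where neither reported gene was called, and 0 with the random block or line means. Leaving out single libraries gave 0 to 2, with Aph1c as the single call without EY replicate 5. Dap ranged from -0.39 to 0.0114 in the single-library fits, turning sign without N replicate 4, and Cby1 was at 0.0125 without line EY4028.

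Sample numbers of the labels as a replicate block gave 221 called genes, 100 lower, 1 related gene (Wnt7a) and 0.0426 for Dap. Sample numbers 3 and 4 occur only in N, so this fit compared EY with N samples 1 and 2 alone. It thus left out N sample 4, without which Dap turned sign as well. The numbers showed no pairing of the samples, with correlations of deviations from line means between -0.15 and 0.10 over 12 pairs. With 2 libraries per EY line, pairs of EY lines give the same value for both sample numbers, so the 12 are not all distinct. The block changed no call of Ociad2 or Tcim between lines. The cause of the other changes between alternatives was not tested. Depth is unknown, so counting error near 0 TPM could not be given.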
